A study of Mus musculus with 2 samples.

Results

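The cytosolic ribosome, the particle that translates the mRNAs of the nucleus, is built of a large and a small subunit, each of rRNA and many small proteins. Its protein genes are read together in most cells, because most of the proteins are needed in equal numbers per particle. A few of them have paralogues, related genes with a narrower pattern of expression, of which Rpl39l is known in the mouse from male germ cells.

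The ribosomal protein genes examined here were every gene on the array whose symbol starts with Rpl or Rps and a number, or is Rplp0, Rplp1 or Rplp2, leaving out the kinases named Rps6k and the numbered pseudogenes. Only probe sets annotated to exactly 1 gene symbol were taken. The rule gave 104 probe sets of 49 genes, among 18193 genes on the array. A further 110 probe sets carried a ribosomal protein symbol beside other symbols and were left out of all gene values, so many ribosomal proteins are not covered. By biotype in RefSeq, 48 of the 49 genes are protein-coding and 1, Rps4l, is a transcribed pseudogene. Rps19bp1, a protein that binds Rps19 and is not a part of the ribosome, was taken in by its symbol alone.

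The series compared Slc39a13-KO with wild-type mouse primary osteoblasts, cells cultured from the skull vault of newborn mice, to find genes that depend on the zinc transporter Slc39a13 (ZIP13). In the mutant allele a Neo cassette stands in place of exons 6 to 8 of Slc39a13, and the labels name no treatment of either culture. Each genotype was read on 1 Affymetrix Mouse Genome 430 array, so no difference below has a replicate check and none has a p-value. The number of pups per culture, their sex and the strain were not found in the sources used.

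A signal is the MAS5 intensity of a probe set, a group of short oligonucleotides for 1 transcript. Signals under a floor of 85.1, the middle of all pooled values, were raised to it, and a gene was called measured if a probe set of it stood above the floor in either array. Log2 ratios are of Slc39a13-KO over wild-type and were averaged over the measured probe sets of a gene. A gene was called at 2-fold, the threshold of the study, if all these probe sets lay on the same side of 0. Where a gene had several measured probe sets, their log2 ratios typically differed by an SD of 0.34 (median over 5700 genes), with a 90th percentile of 0.75. This spread within the arrays is the only one they give. It does not measure the error between arrays or cultures, and a shift shared by all probe sets of a gene leaves it unchanged.

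Slc39a13 itself had a signal of 90.4 in the Slc39a13-KO array and 1309 in the wild-type array, which goes with the labels, although whether its probe set lies in the removed exons was not established. The cultures differed in more than this gene. Of 7 chondrocyte markers 7 were called higher in the Slc39a13-KO array (summed signal 123094 against 3413 in wild-type), and of 5 smooth muscle markers 4 were called lower (15738 against 43567). Of 6 macrophage and osteoclast markers 3 were called higher and 0 lower (summed signal 6007 in Slc39a13-KO against 4920 in wild-type). Lyz2 had 2146 in Slc39a13-KO and 255 in wild-type. Cd68 and Adgre1 had 274 and 238 in Slc39a13-KO and lay below the floor in wild-type. Csf1r (303 in Slc39a13-KO, 183 in wild-type) was not called. Ctsk, the brightest, was on the lower side with 2956 in Slc39a13-KO and 4227 in wild-type, and Acp5 lay near or below the floor in both. Of 9 osteoblast markers listed 6 had a probe set with their symbol alone, and Runx2, Spp1 and Bglap had none. Of 5 measured osteoblast markers 2 were called higher and 0 lower, Alpl and Dmp1. Col1a1 had 7655 in Slc39a13-KO and 12230 in wild-type (log2 ratio -0.68, SD 1.02, n = 2 probe sets), and Col1a2 had 25943 and 28503 (-0.14). Sp7 had 153 in Slc39a13-KO and 94.8 in wild-type. Alpl had 197 and Dmp1 383 in Slc39a13-KO, and both lay below the floor in wild-type. Ibsp lay below the floor in both arrays. The summed signal of the measured osteoblast markers was 34332 in Slc39a13-KO against 40998 in wild-type. Xist had a signal of 2188 in the Slc39a13-KO array and 94.7 in the wild-type array, and Eif2s3y of the Y chromosome lay below the floor in Slc39a13-KO and had 1251 in wild-type, so the sex of the pups and the genotype cannot be told apart. In bulk RNA, fewer cells of a type and less RNA per cell cannot be told apart either.

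Ribosomal protein genes were close between the genotypes, apart from 2 that were far lower in the Slc39a13-KO array. Of the 49 genes 47 were measured. The 2 far lower were Rpl39l, the paralogue of the exit-tunnel protein Rpl39, and the pseudogene Rps4l, each by more than 16 times. One gene, Rpl39, was called higher (2.03-fold). Over all 12269 measured genes, 5.93% were called lower and 8.01% called higher, against 2 and 1 of the 47 ribosomal protein genes, and 13.9% were called in either direction, against 3 of the 47. With 1 array a genotype, these shares describe the 2 arrays and were not tested.

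**Figure D1:**
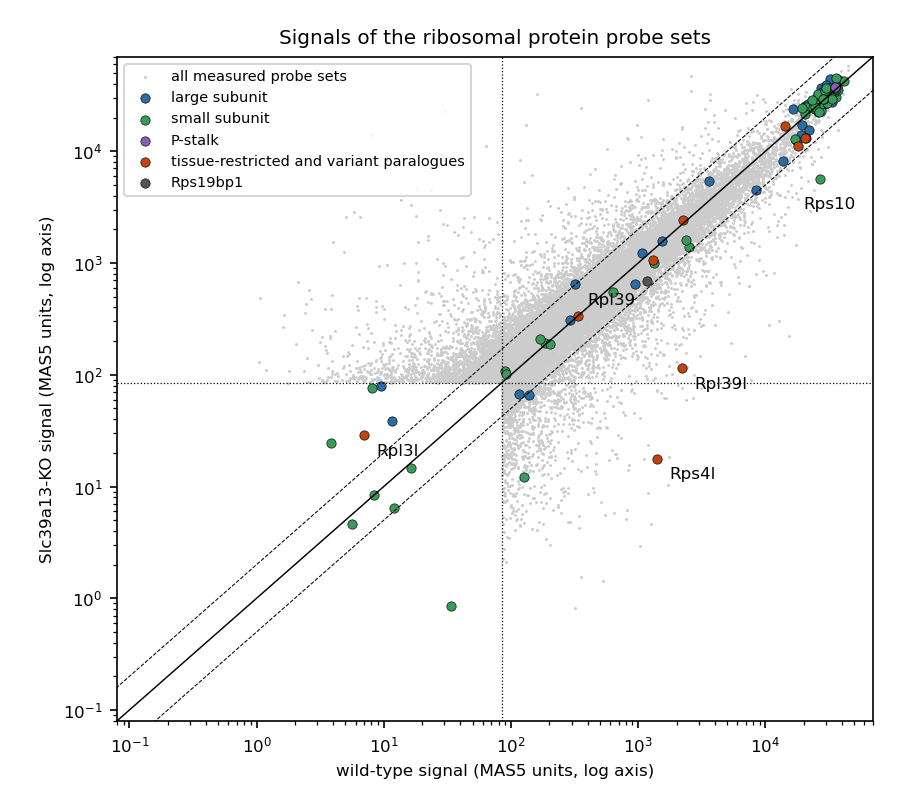
Signals of the 104 ribosomal protein probe sets in MAS5 units on log axes, Slc39a13-KO running up and wild-type running across, coloured by role, over all measured probe sets in grey, with a solid line for equal signals, dashed lines for 2-fold and dotted lines at the floor of 85.1. Most sit in the upper right corner on the line of equal signals, and Rpl39l (115 in Slc39a13-KO, 2216 in wild-type) and Rps4l (17.8 and 1412) lie far below it.

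Rpl39l encodes a close relative of Rpl39, a very small protein that lines the tunnel through which the new chain leaves the large subunit. Its 1 probe set had a signal of 115 in the Slc39a13-KO array and 2216 in the wild-type array. The Slc39a13-KO signal lay a little above the floor of 85.1, and the wild-type signal far above it. The log2 ratio was -4.27, which is 19.2-fold lower in Slc39a13-KO. This probe set has no suffix, the mark Affymetrix gives to probe sets whose oligonucleotides also match other transcripts or splice forms.

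Rps4l, annotated by RefSeq as a transcribed pseudogene of the Rps4 family, had a signal of 17.8 in the Slc39a13-KO array and 1412 in the wild-type array. The Slc39a13-KO value is under the floor, so the difference is a bound, at least 16.6-fold lower. It too was read by 1 probe set with no suffix.

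The widely expressed partners of these genes did not share the difference. Rpl39 had a signal of 650 in the Slc39a13-KO array and 320 in the wild-type array, a log2 ratio of 1.02 and thus just inside the 2-fold threshold. It was 0.78 with median scaling, 0.89 with quantile and 0.87 with loess normalization, where the gene was not called. Rpl39 was read by 1 probe set, far dimmer than most here, as 69 of the 94 measured ones had a mean signal over 8000. Rps4x, a protein of the small subunit, had 36311 in Slc39a13-KO and 35998 in wild-type in its measured probe set, a log2 ratio of 0.01, while a dimmer second probe set was under the floor throughout. Rpl39 and Rps4x are the 2 of these 49 genes on the X chromosome, and Xist and the Y gene Eif2s3y differed between the arrays as given above. The part of this in the Rpl39 value was not tested.

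Other paralogues were closer between the genotypes. Rps27l, a paralogue of Rps27 that p53 is known to induce, had signals of 13006, 13074 and 11153 in the Slc39a13-KO array, against 20593, 20698 and 17855 for the same 3 probe sets in the wild-type array. All 3 were lower in Slc39a13-KO by nearly the same factor, with a mean log2 ratio of -0.67 (SD 0.0093 between probe sets, n = 3), short of 2-fold, and 0.35 with scaling on the poly-A controls. The 3 probe sets carry suffixes and 2 of them were designed on the same sequence record, so they are not independent readings. Rps27, its partner on the small subunit, had 544 in Slc39a13-KO and 636 in wild-type.

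Rpl22l1, the paralogue of the RNA-binding protein Rpl22, had 16807 in the Slc39a13-KO array and 14179 in the wild-type array, a log2 ratio of 0.25. Rpl22 had a mean log2 ratio of 0.14 (SD 0.39, n = 3 probe sets). Rpl7l1, a relative of Rpl7, had -0.06 (SD 0.23, n = 3) and Rpl7 had -0.05 (SD 0.42, n = 3). Rpl3l, which striated muscle uses in place of Rpl3, was not measured, with 29.0 in Slc39a13-KO and 6.95 in wild-type, both under the floor. Of 6 paralogues on the array 5 were measured, with 2 called lower, the pseudogene Rps4l among them, and 0 called higher. Over all measured genes 5.93% were called lower and 8.01% higher, and 5 genes are too few to compare with these shares.

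**Figure D2:**
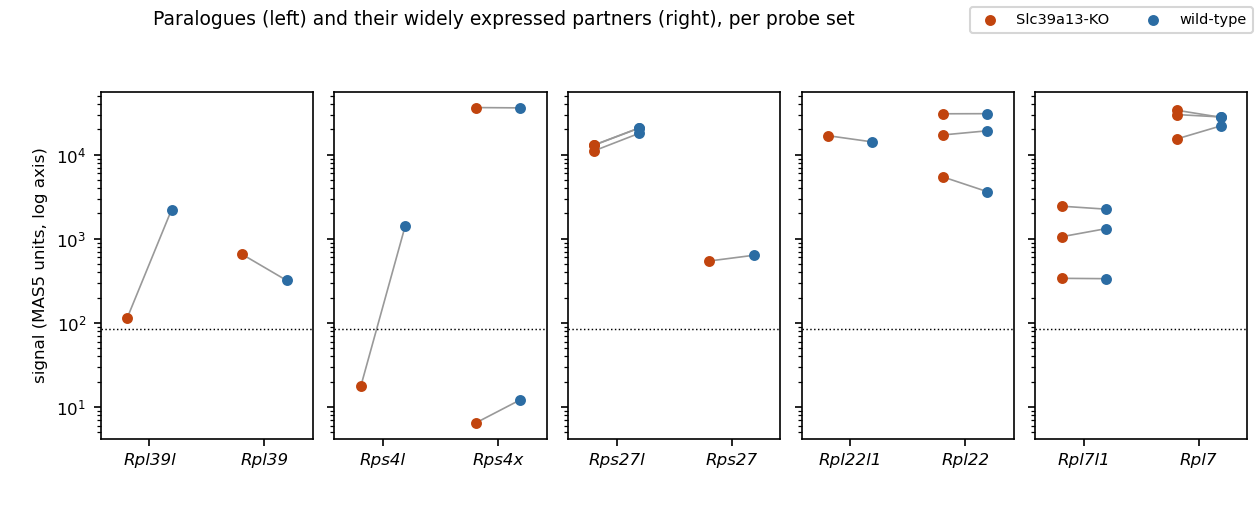
Signals (vertical, MAS5 units, log axis) of 5 paralogues and their widely expressed partners, with a line joining the Slc39a13-KO (orange) and wild-type (blue) values of each probe set and a dotted line at the floor of 85.1. Rpl39l and Rps4l are far lower in Slc39a13-KO, Rps27l is lower in 3 of 3 probe sets, Rpl39 is higher in Slc39a13-KO, and the lines of the other genes have small or mixed slopes.

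Male germ cell genes, listed because Rpl39l is known from testis, were at or near background. Of 8 on the array 1 was measured, the protamine gene Prm2, which lay below the floor in the Slc39a13-KO array and had 117 in the wild-type array. The other 7, Ddx4, Dazl, Sycp3, Tnp1, Prm1, Tex101 and Ldhc, lay below the floor in both. The cultures came from the skull vault and not from testis, so these values are no test of the Rpl39l signal. The genes next to Rpl39l gave no call. Of the 5 protein-coding genes before it and the 5 after it on chromosome 16, 6 were measured and 0 were called, with log2 ratios between -0.67 and 0.66. Around Rps4l on chromosome 6, 8 of 10 were measured and 1 was called, Tmtc1, with 1122 in Slc39a13-KO and 405 in wild-type. Over all measured genes 13.9% were called in either direction, and 6 and 8 genes are too few to compare with this share.

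To show what the promoters of these genes share, their sequences were taken from RefSeq (build GRCm38.p6), 250 bases before to 50 after the annotated start. Of the 49 genes 43 matched, with 51 promoters. Ribosomal protein mRNAs are known to begin with a terminal oligopyrimidine (TOP) tract, a run of C and T by which cells set their translation. A run of at least 8 C or T bases within 25 bases either side of the annotated start was found in 23 of 51 promoters (45.1%), against 19.7% of all 32851 promoters in the table. Such a run can lie before or after the start, so it is not by itself a TOP tract. The following 30 bases, from 15 before to the 15 from the annotated start on, show Rpl39l beside Rpl39 and members with long runs, with the longest run of C and T in capitals.
Rpl39l (chr16:10170213-10170242, plus strand): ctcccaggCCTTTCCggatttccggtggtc
Rpl39 (chrX:37085208-37085237, minus strand): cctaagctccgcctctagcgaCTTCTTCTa
Rpl27a (chr7:109519180-109519209, plus strand): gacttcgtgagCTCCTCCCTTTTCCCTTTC
Rpl35 (chr2:39005117-39005146, minus strand): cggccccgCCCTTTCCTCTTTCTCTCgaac
Rps10 (chr17:27635230-27635259, minus strand): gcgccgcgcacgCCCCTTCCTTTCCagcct
Rps27l (chr9:66946071-66946100, plus strand): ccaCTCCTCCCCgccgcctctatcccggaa
For Rpl39l the capitals mark a run of 7 that lies before the annotated start, as does the run of Rps27l. In Rpl39 the run begins after that start. The run of 8 that counts Rpl39l among the 23 lies before these 30 bases and is not shown. Rps27l has a second annotated start that is not shown.

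The core letters bound by ETS factors, TTCCGG on either strand, were found in 27 of 51 promoters of these genes (52.9%), against 14.9% of all promoters of the same length. Overlapping matches on the 2 strands were each counted. The Rpl39l promoter held them 4 times, 2 of them at its start, as the same 30 bases show with the letters in capitals, beside those of Rps27.
Rpl39l (same window): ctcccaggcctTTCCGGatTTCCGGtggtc
Rps27 (chr3:90213634-90213663, minus strand): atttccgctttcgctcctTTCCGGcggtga
Rpl39l had 17 CG pairs in its promoter, like its partner Rpl39 (17), against a median of 22 over promoters of these genes (range 2 to 39) and of 7 over all promoters. The TATA box letters TATAAA, on the strand of the gene, lay in the 50 bases before the start in 1 of 51 promoters, that of Rpl22l1, against 2.63% of all. A match is a description of these letters and was not tied to the signals.

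Genes of the subunits themselves formed a tight group. Of 42 genes of the large subunit, the small subunit and the P-stalk 41 were measured, and 39 of these (95.1%) lay within 1.5-fold between the genotypes, against 67.7% of all measured genes. Their median log2 ratio was 0.07, against 0.11 for all genes. The exceptions were Rpl39, given above, and Rpl37. Over all 47 measured genes of the rule, with the paralogues and Rps19bp1, 41 (87.2%) lay within 1.5-fold. Most ribosomal protein transcripts gave very bright signals, where arrays can saturate and folds are compressed. Of the 94 measured probe sets 69 had a mean signal over 8000 (geometric mean of both arrays, a limit set after the values were seen), and 64 of these 69 (92.8%) lay within 1.5-fold. Over all 670 such bright probe sets of the array, the ribosomal protein ones included, 75.8% did.

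**Figure D3:**
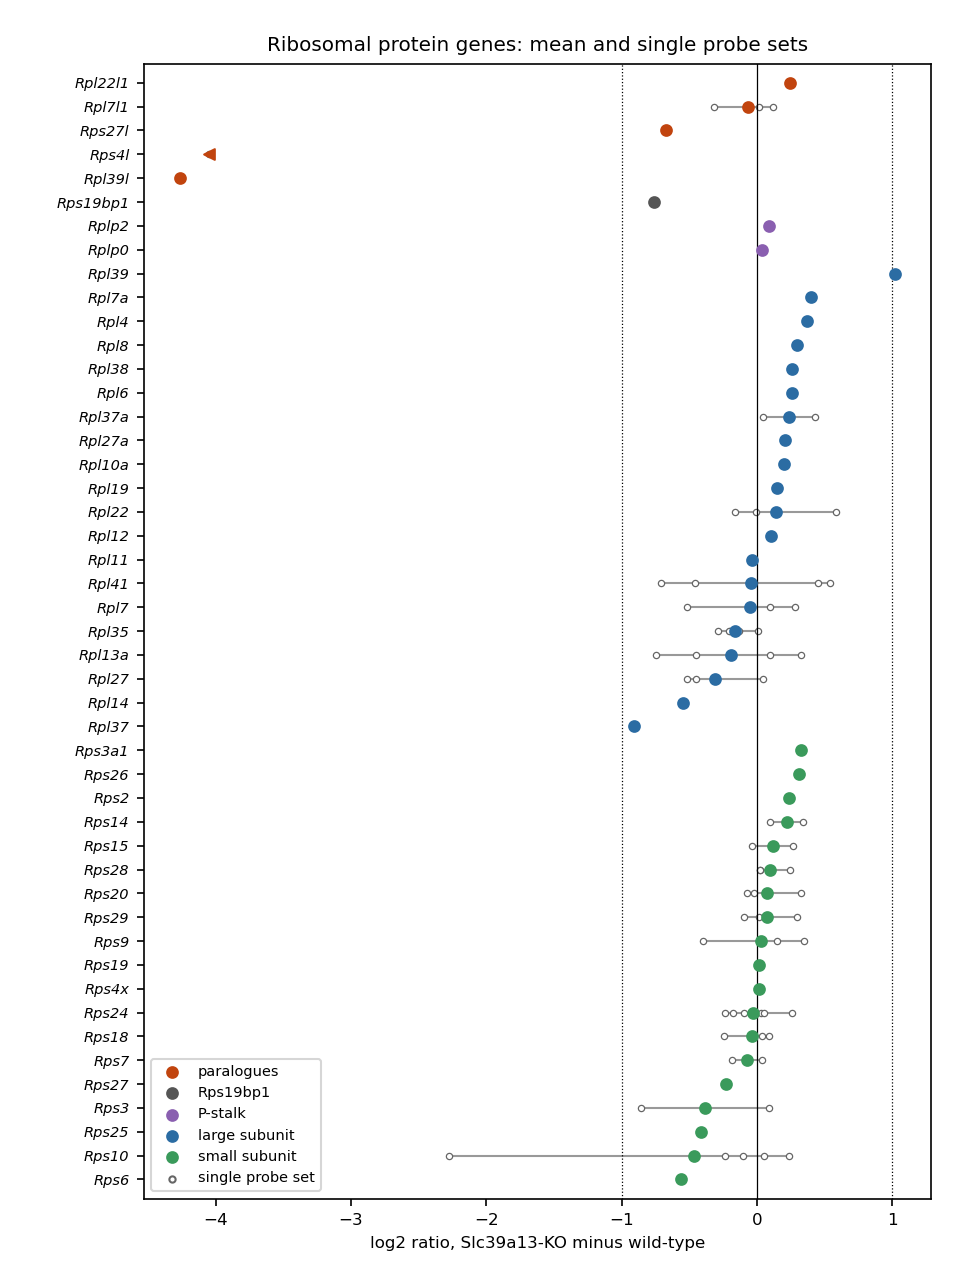
Log2 ratios of Slc39a13-KO minus wild-type (horizontal) for the 47 measured ribosomal protein genes, coloured by role and sorted within it, with filled points for gene means, open circles for single probe sets, a triangle for the bound of Rps4l and dotted lines at 2-fold. The subunit genes cluster around 0, from -0.91 for Rpl37 to 1.02 for Rpl39, and 1 probe set of Rps10 stands apart from the other 4.

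Large subunit proteins lay on both sides of 0. All 20 on the array were measured, with 12 above 0 and 8 below. Their median was 0.14, against 0.11 for all genes. The signs depend on the scaling. With median scaling Rpl10a, Rpl19 and Rpl22, all above 0 here, had log2 ratios of -0.05, -0.09 and -0.11. Beside Rpl39, the values furthest up were Rpl7a (39189 in Slc39a13-KO, 29730 in wild-type, log2 ratio 0.40), Rpl4 (39345 and 30502, 0.37) and Rpl8, a protein near the peptidyl transferase centre (26528 and 21557, 0.30). Each of these rests on 1 probe set and lies within the usual spread between probe sets, or close to it.

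At the other end stood Rpl37, with 4521 in the Slc39a13-KO array and 8474 in the wild-type array, a log2 ratio of -0.91 that was just short of 2-fold. Its 1 probe set carries the x suffix, given where oligonucleotides can also bind other transcripts. With median scaling Rpl37 was called lower, and with poly-A control scaling its log2 ratio was 0.11. Rpl14 had 642 in Slc39a13-KO and 937 in wild-type (-0.55), and Rpl27 had a mean of -0.31 (SD 0.31, n = 3). Rpl11, which binds the p53 inhibitor Mdm2 when ribosome assembly fails, had 23745 in Slc39a13-KO and 24324 in wild-type. Rpl38, which in mouse embryos is needed to translate certain Hox mRNAs, had 44049 in Slc39a13-KO and 36788 in wild-type (0.26).

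Both measured proteins of the P-stalk, the flexible arm that recruits elongation factors, were level. Rplp0, its base, had 36426 in the Slc39a13-KO array and 35481 in the wild-type array. Rplp2 had 37223 and 34987. The third stalk protein, Rplp1, had no probe set with its symbol alone.

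Small subunit proteins were closer still to 0. Of 20 on the array 19 were measured, all 19 lay within 1.5-fold, and the median was 0.02. The furthest up were Rps3a1 (44690 in Slc39a13-KO, 35624 in wild-type, log2 ratio 0.33), Rps26 (28800 and 23187, 0.31) and Rps2 (36931 and 31336, 0.24). The furthest down were Rps6, the substrate of the S6 kinases (-0.56), Rps10 (-0.47) and Rps25 (1006 in Slc39a13-KO, 1336 in wild-type, -0.41). Rps16 was read by 1 probe set, which was under the floor in Slc39a13-KO and in wild-type.

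Rps6 had 1618 in Slc39a13-KO and 2382 in wild-type in its brighter probe set. In the dimmer one it had 12.2 in Slc39a13-KO, under the floor, and 126 in wild-type. With the floor at the 30th percentile, or with none, this dim probe set took the gene past 2-fold lower.

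Probe sets of 1 gene did not always read alike. Of the 21 genes with several measured probe sets, 16 had values on both sides of 0, and the median SD between probe sets was 0.20, against 0.34 for all genes. Rps10 had the widest range, 2.51 on the log2 scale. One of its probe sets, with the x suffix, had 5584 in Slc39a13-KO and 27058 in wild-type (-2.28), whereas the other 4 measured ones lay between -0.24 and 0.23. A fold near 5 in that probe set is therefore not a fold of the gene as its other probe sets read it.

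Rpl41, the smallest protein of the ribosome, split by brightness. Its 2 bright probe sets had 44222 and 24038 in Slc39a13-KO, against 32376 and 16503 in wild-type. Its 2 dim ones lay below the floor in Slc39a13-KO and had 139 and 117 in wild-type. Rpl13a ranged from -0.75 to 0.33 over 4 probe sets, Rps3 from -0.86 to 0.09 over 2, Rpl7 from -0.52 to 0.28 over 3 and Rps9 from -0.40 to 0.35 over 3. Of all 104 probe sets 71 (68.3%) carried a suffix, against 22.8% of all probe sets with 1 symbol. Over the 25 measured probe sets with no suffix the median log2 ratio was -0.10, over the 38 with the x suffix -0.05 and over the 28 with the a suffix 0.08.

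Rps19bp1, which binds Rps19 and is known as a regulator of the deacetylase Sirt1, had 690 in the Slc39a13-KO array and 1169 in the wild-type array. Its log2 ratio of -0.76 did not reach 2-fold, but it did with median scaling, and it was 0.26 with poly-A control scaling.

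Other genes of translation were set beside the ribosomal proteins. Of 46 measured initiation and elongation factors 0 were called higher (8.01% over all genes) and 1 was called lower (5.93%). The 1 called lower was Eif4ebp1, a repressor that binds the cap-binding protein eIF4E. It had 1199 in Slc39a13-KO and 2934 in wild-type, 2.45-fold lower (SD 0.15 on the log2 scale, n = 3 probe sets). The median of these factors was -0.02. Of 19 other mRNAs known for a TOP tract 0 were called in either direction (13.9% over all genes), and their median was 0.09.

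Proteins of the mitochondrial ribosome, a separate particle inside mitochondria, also lay mostly near 0. Of 76 measured 68 (89.5%) lay within 1.5-fold, with a median of -0.17. The cytosolic subunit genes had 95.1% and 0.07, and all 47 measured genes of the rule, paralogues included, had 87.2% and 0.03. Of the 76 mitochondrial ones 2 were called in either direction, against 13.9% over all genes. They were Mrps6, with 4745 in Slc39a13-KO and 2133 in wild-type, and Mrps14, with 776 and 1651, whose 2 probe sets disagreed in size (SD 1.25).

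Genes that assemble ribosomes or transcribe rRNA had a median of -0.24, and 47 of 64 measured (73.4%) lay within 1.5-fold. Of the 64, 4 were called lower and 0 higher, near the 5.93% called lower over all genes. Rrp9, of the U3 particle that cleaves pre-rRNA, had 224 in Slc39a13-KO and 708 in wild-type. Rrn3, an initiation factor of RNA polymerase I, had 449 in Slc39a13-KO and 1144 in wild-type. Nhp2, of the particles that guide pseudouridylation, had 1612 and 3895, and Gnl3 (nucleostemin) had 1196 and 2394. Genes of dividing cells, which make many ribosomes, were on the higher side with 0 of 7 called, a median of 0.67 and a summed signal of 12958 in Slc39a13-KO against 8000 in wild-type. The part of cell division, cartilage cells, smooth muscle cells or macrophages in any ribosomal protein value was not tested.

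**Figure D4:**
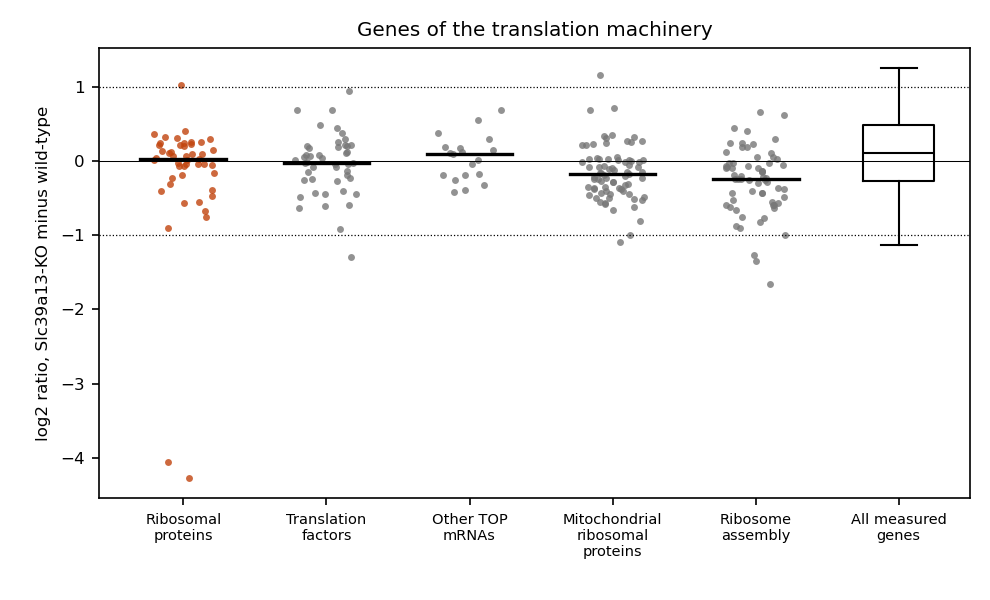
Log2 ratios of Slc39a13-KO minus wild-type (vertical) for measured genes of 5 groups of the translation machinery, each point 1 gene and black bars the medians, beside all 12269 measured genes as a box of quartiles with whiskers at the 5th and 95th percentiles. The medians lie between -0.24 for ribosome assembly and 0.09 for other TOP mRNAs, and Rpl39l and Rps4l lie alone below -4.

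The sign of the ribosomal protein median was not fixed by these data. It was 0.03 as scaled, against 0.11 for all genes, and it was -0.21 with median scaling, where all genes had -0.11, and -0.12 with quantile normalization, where all genes had 0. With scaling on the 27 poly-A control probe sets, bacterial RNAs normally added before labelling, it was 1.03 against 0.94 for all genes. With that scaling 25 of the 47 genes were called higher, against 45.6% of all genes. Rpl39l and Rps4l were called lower under each of these scalings and with loess normalization. Lower calls made up 1.77% of all genes with the poly-A controls, 8.60% with median scaling, 6.98% with quantile and 6.77% with loess normalization. Higher calls, which under the last 3 took in 0 ribosomal protein genes, made up 5.34% with median scaling, 6.34% with quantile and 6.56% with loess normalization.

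The floor decided which dim genes could be called. With the floor at the 30th percentile, 1 ribosomal protein gene was called higher (10.3% of all genes) and 3 lower (6.54%). With no floor 2 were called higher (16.9%), Rpl39 and the very dim Rpl3l, and 3 lower (11.3%). With the floor at the 90th percentile 39 were measured and 0 were called in either direction, where 3.94% of all genes were called higher and 4.03% lower. Calling at 1.5-fold gave 1 higher (19.4%) and 5 lower (12.1%), with Rpl37, Rps27l and Rps19bp1 beside Rpl39l and Rps4l.

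**Figure D5:**
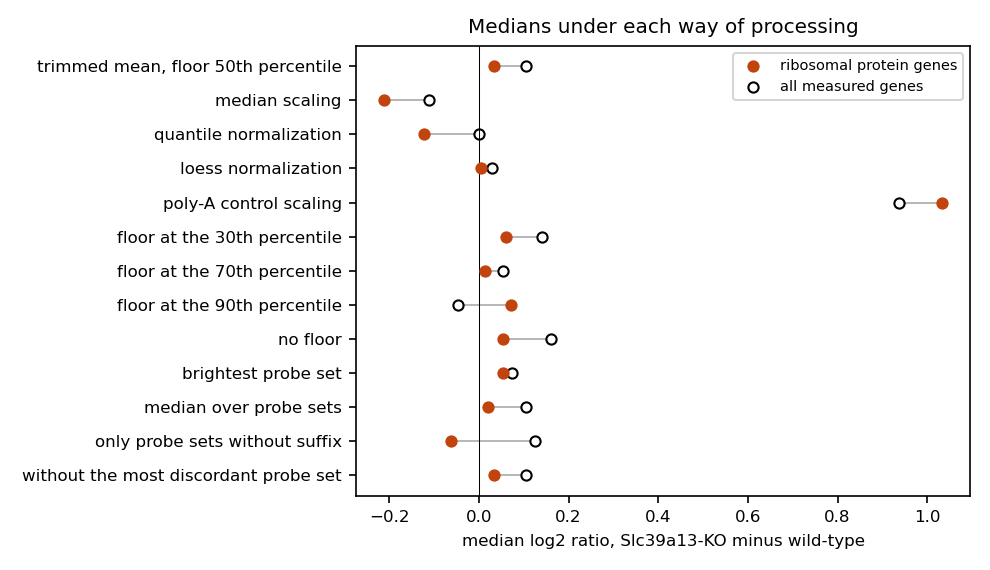
Median log2 ratio of Slc39a13-KO minus wild-type (horizontal) of the ribosomal protein genes (orange) and of all measured genes (open circles) under each way of processing the 2 arrays, 1 per row. Both medians move with the scaling, from -0.21 for ribosomal protein genes with median scaling to 1.03 with poly-A control scaling, and they lie on opposite sides of 0 with the 90th-percentile floor and without suffixed probe sets.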

How the data were processed

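The deposited values are linear signal intensities per probe set, which the authors made with MAS5 as named in the submitters' processing notes, version not stated there. The methods of the study name gcRMA instead. Both arrays had a 2% trimmed mean of 500.003. The platform annotation gave 1 symbol to 34945 of 45101 probe sets, several to 932 and none to 9160, and 64 controls were left out.

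Arrays were rescaled to a common trimmed mean, signals below the median of the pooled probe sets were raised to that floor, and log2 ratios were averaged per gene (Python 3.11.15, numpy 2.4.6, pandas 2.3.3). The call at 2-fold was tested on simulated data. Alternatives were 4 other scalings (the loess one with statsmodels 0.14.6), other floors, other summaries of probe sets, only probe sets without suffixes, and 1.5-fold calls.

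Named genes are the paralogues with their partners, the P-stalk, each called gene, the 3 highest and 3 lowest uncalled genes of each subunit, the 6 genes whose probe sets differed most, and called genes of the comparison lists. Rpl11 and Rpl38 were added for their known roles, after their values were seen. The members and lists were chosen with earlier results of these data known. RefSeq (GRCm38.p6) gave biotypes, chromosomes and gene order, and 49 of 49 genes matched it by gene ID. With 1 array per genotype no test was made, and the number of arrays limits the precision.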

Additional observations from a re-analysis of the deposited data

How the results depend on the processing

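Rpl39l was lower in Slc39a13-KO under each alternative run. Its log2 ratio was -3.25 with poly-A control scaling, -2.79 when the 70th percentile served as the floor and -0.41 when the 90th did, where the Slc39a13-KO signal was raised to the floor by construction. The count of 1 gene higher was 0 with median, quantile and loess scaling and under the 90th-percentile floor, 2 with no floor and 25 with poly-A control scaling. The count of 2 genes lower was 4 with median scaling, where Rpl37 and Rps19bp1 joined, 0 under the 90th-percentile floor and 5 with 1.5-fold calls, where 12.1% of all genes were called lower. The median of 0.03 was -0.21 with median scaling, -0.12 with quantile normalization, 1.03 with poly-A control scaling and -0.063 over the 21 genes measured without suffixed probe sets. Leaving out the 1 Rps10 probe set that stood apart, an alternative chosen after seeing the data, moved none of these 4 results. Of the values of single genes and comparison lists under the alternatives, 504 moved by less than the spread between probe sets (for lists, that spread over the root of their size) and 131 by more. Rpl39, Rpl39l and Rps4l kept their sign wherever they were measured, whereas Rpl37 and Rps19bp1, called lower with median scaling, lay above 0 with poly-A control scaling, and some genes called higher with poly-A control scaling lay below 0 with median scaling. The limits of depth on an array are at its ends: dim signals near the floor give bounds, and bright ones may saturate. No paired analysis was possible because each genotype has 1 array.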

Other observations

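The probe sets with a ribosomal protein symbol beside other symbols read much like those with 1 symbol. Of 110 such probe sets 100 were measured, with a median log2 ratio of 0.10, and 91 of them (91.0%) lay within 1.5-fold. At least 2-fold differences were seen in 4, all lower in Slc39a13-KO, with log2 ratios of -1.56, -1.17, -1.14 and -1.06. Over all measured genes, counted per gene and not per probe set, 5.93% were called lower and 8.01% higher, so 4 of 100 does not stand out. They are not named, because their signal cannot be assigned to 1 gene.

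Rps27l is known as a gene that p53 induces, and a list of 20 other such genes was written after its value was seen. Of 18 measured 7 were at least 2-fold lower in Slc39a13-KO and 0 were higher, with a median log2 ratio of -0.84, against 5.93% called lower over all genes and a median of 0.11. The list was read with the trimmed-mean scaling only. With poly-A control scaling Rps27l had a log2 ratio of 0.35, the median over all genes was 0.94 and 1.77% of them were called lower. The count of 7 and the sign of the list median were not checked under that scaling. Cdkn1a, the inhibitor of cyclin-dependent kinases, had 2614 in Slc39a13-KO and 8150 in wild-type, and Mdm2, which degrades p53, had 1008 and 2065. Perp, a membrane protein of cell junctions, had 353 in Slc39a13-KO and 2439 in wild-type. Sesn1, a stress protein, had 988 in Slc39a13-KO and 569 in wild-type, with an SD of 0.98 between its 3 log2 ratios. In the same arrays genes of dividing cells had a median of 0.67, and markers of cartilage, smooth muscle and in part macrophages differed as given above.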
